A study of Mus musculus with 6 samples.

Results

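The circadian clock genes examined here are 10 genes of the transcriptional loop that times daily rhythms: Arntl, Clock, Per1, Per2, Per3, Cry1, Cry2, Nr1d1, Bhlhe40 and Bhlhe41. They were taken by name from a deposited table of 54532 genes, each name had 1 row, and all 10 passed the filter on low values. The table holds messenger RNA levels of pancreatic islets from mice aged 7 weeks, in 2 groups of 3 samples, each sample pooling the islets of 3 mice. The control group is Wtap flox/flox, with the Wtap gene flanked by recombination sites and otherwise intact, and the other group is labelled Wtap-βKO, a deletion of Wtap aimed at insulin-producing β cells. The WTAP protein belongs to the complex that writes N6-methyladenosine on RNA, and the series asks about its effect on islet β-cell function. The recombinase and the promoter that drives it, the time of day at which islets were taken, and the lighting schedule were not given in the sources used here.

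In the clock of mammalian cells, the proteins CLOCK and BMAL1 (the product of Arntl) bind E-box sequences together and switch on the Period and Cryptochrome genes, whose products return to the nucleus and repress that same pair. A second loop runs through the REV-ERB repressors (Nr1d1 and Nr1d2) and the ROR activators, which compete at response elements in Arntl, Npas2, Cry1 and Nfil3. The proteins DBP, TEF and HLF activate D-box sequences and NFIL3 represses them, while the DEC repressors (Bhlhe40 and Bhlhe41) bind E-boxes. In islets this loop is known for its part in the daily timing of insulin secretion.

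Nr1d1, which encodes the repressor REV-ERBα, showed the largest difference of the 10 and was 3.01-fold lower in the libraries labelled Wtap-βKO. Bhlhe41, Clock, Per3 and Per2 also fell, 1.84-fold, 1.52-fold, 1.74-fold and 1.2-fold. Cry1 rose 1.46-fold. Arntl, Per1, Cry2 and Bhlhe40 did not pass the test. In all, 1 of the 10 was called higher and 5 lower, where 8.77% of all genes tested were called higher, 11.3% lower and 20.1% in either direction. The groups did not overlap for 7 of the 10, against 41.3% of all genes tested. Scaled to total recovered reads, which moves the median log2 fold change of all genes to 0.082, 1 of the 10 was higher and 3 lower, and over all genes 2334 were higher and 1094 lower, against 1397 and 1798. Scaled to one total without the 50 highest genes, 1676 were higher and 1440 lower. The median log2 fold change of the 10 was -0.14, against -0.0055 over all genes tested, and the median size of the change without its sign was 0.39 against 0.18.

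Values are scaled FPKM: fragments per kilobase of gene, scaled between libraries as deposited. They were divided by a factor of 1.01, the same in every sample. The library size implied by the deposited scaling was 0.988, 0.966 and 0.952 of recovered reads in controls 1 to 3. In replicates 1 to 3 labelled Wtap-βKO it was 1.068, 1.039 and 1.037. A gene was called when its adjusted p by limma, a linear model fitted across 15927 genes on log2(scaled FPKM + 1), was below 0.05. Log2 fold changes on that scale understate the change of low genes, and folds are ratios of group means. Samples within a group are described in the labels as independent biological replicates.

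Sequence upstream of the starts is shown for 5 genes with a match to an E-box, its variant or a D-box, to show which clock motifs lie there. RefSeq (GRCm38.p6) gave windows of 250 bases before to 50 bases after 12 start sites of 8 of the 10 genes. Bhlhe40 and Per2 had no window. The stretches below run 5′ to 3′ on the gene's own strand, leave out exon bases of protein-coding genes, and have motif matches in capitals. They lie at chr6:145865559-145865670 (minus strand, Bhlhe41), chr11:69098699-69098947 (plus strand, first start of Per1), chr4:151044666-151044915 (minus, Per3), chr10:85185065-85185304 (minus, Cry1) and chr11:98775378-98775627 (minus, Nr1d1).
Bhlhe41: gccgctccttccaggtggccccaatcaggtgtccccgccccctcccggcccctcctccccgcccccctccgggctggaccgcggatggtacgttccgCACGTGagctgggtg
Per1: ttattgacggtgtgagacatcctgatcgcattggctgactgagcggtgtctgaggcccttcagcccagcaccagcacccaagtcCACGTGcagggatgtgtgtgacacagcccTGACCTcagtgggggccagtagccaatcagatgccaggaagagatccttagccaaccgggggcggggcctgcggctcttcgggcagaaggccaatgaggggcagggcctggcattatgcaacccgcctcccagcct
Per3: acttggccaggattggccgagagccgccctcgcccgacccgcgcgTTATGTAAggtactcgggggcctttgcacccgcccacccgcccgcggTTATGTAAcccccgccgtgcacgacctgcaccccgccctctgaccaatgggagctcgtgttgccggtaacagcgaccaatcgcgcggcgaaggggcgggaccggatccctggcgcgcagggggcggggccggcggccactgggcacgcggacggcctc
Cry1: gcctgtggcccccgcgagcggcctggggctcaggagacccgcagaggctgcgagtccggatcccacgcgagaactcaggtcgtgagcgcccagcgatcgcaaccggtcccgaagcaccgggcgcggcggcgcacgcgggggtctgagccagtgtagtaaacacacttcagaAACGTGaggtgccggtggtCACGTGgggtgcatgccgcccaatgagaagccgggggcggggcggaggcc
Nr1d1: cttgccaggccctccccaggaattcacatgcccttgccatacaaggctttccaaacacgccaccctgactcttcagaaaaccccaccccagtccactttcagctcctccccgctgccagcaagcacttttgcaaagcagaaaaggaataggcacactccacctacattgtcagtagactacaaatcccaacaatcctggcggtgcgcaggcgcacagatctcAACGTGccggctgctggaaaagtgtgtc

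The E-box CACGTG was found 153 bases before the start of Bhlhe41, 166 before the first start of Per1 and 60 before that of Cry1. Distances are counted from the RefSeq starts. For some genes these differ from the gene coordinates given below, and those of Bhlhe41 and Per1 lie inside them. It occurs in 7.15% of the 32851 windows of 300 bases in the table. Its variant CACGTT, which reads AACGTG where it lies on the other strand, was found 79 bases before the start of Cry1, 28 before that of Nr1d1 and 166 before that of Cry2, and occurs in 4.68% of windows. Per3 held the D-box TTATGTAA at 205 and 158 bases before its start. The D-box was searched as TTATGTAA, TTATATAA, TTACGTAA or TTACATAA, and 1.59% of windows hold 1 of these. The core site AGGTCA of nuclear receptors, in 16.3% of windows, lay 137 bases before the first start of Per1 (as TGACCT in the sequence above), 119 before the third start of Clock and 32 bases after the second start of Arntl. The cyclic AMP element TGACGTCA, in 1.79% of windows, had no match in the 12 windows of these genes. Bhlhe40 and Per2 had no window to search. Both strands were searched, and no match of a motif overlapped a match of another. A match describes the letters only. Among the genes with the E-box CACGTG, Cry1 rose, Bhlhe41 fell and Per1 was not called.

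The library check came first. Wtap had 10.5, 11.3 and 11.5 scaled FPKM in controls 1 to 3 and 11.1, 11.8 and 12.2 in those labelled Wtap-βKO (log2 fold change 0.07, SE 0.063, limma adjusted p = 0.475), so the deposited level does not show the deletion, whose extent in the gene was not given, and directions are those of the libraries as labelled. Total reads recovered from the table were between 16353297 and 18682745 per library. Replicate 2 labelled Wtap-βKO stood apart, where chi-square over its degrees of freedom was 17.2 and 18.1 against the others of its group, while the other pairs within a group gave 5.38 to 6.61. For the 10 clock genes, values without it are given beside the results. The tissue label was borne out by the markers: the summed level of 10 β-cell markers was 134148 to 154257 in controls and 81368 to 91878 in those labelled Wtap-βKO, with 8 of 10 lower. Of 6 α-cell markers 4 rose (sum 21134 to 25306 and 33561 to 44325), and of 5 markers of δ, PP and ε cells 2 rose (sum 12462 to 13978 and 14925 to 27663, the highest in replicate 2). Of 6 acinar markers 2 rose (sum 82.5 to 147 and 146 to 208), of 5 mesenchymal 3 (12.2 to 17.9 and 24.1 to 31.7), of 5 duct markers 1 (42.1 to 48.2 and 56.1 to 84.7), of 5 endothelial 1 (129 to 156 and 154 to 175) and of 5 macrophage 1 (75.9 to 83.4 and 89.8 to 96.7). Of 2 tested lymphocyte markers 1 rose and 1 fell (sum of the 5 listed 11.8 to 13.5 and 43.1 to 53.4), and of 3 tested glial and neuronal markers 0 were called (sum 3.60 to 5.20 and 5.44 to 6.86). None of these markers was at 0 in all libraries. The part of these shifts in the clock genes was not tested, and in pooled islets fewer cells of a type and less RNA per cell cannot be told apart.

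**Figure D1:**
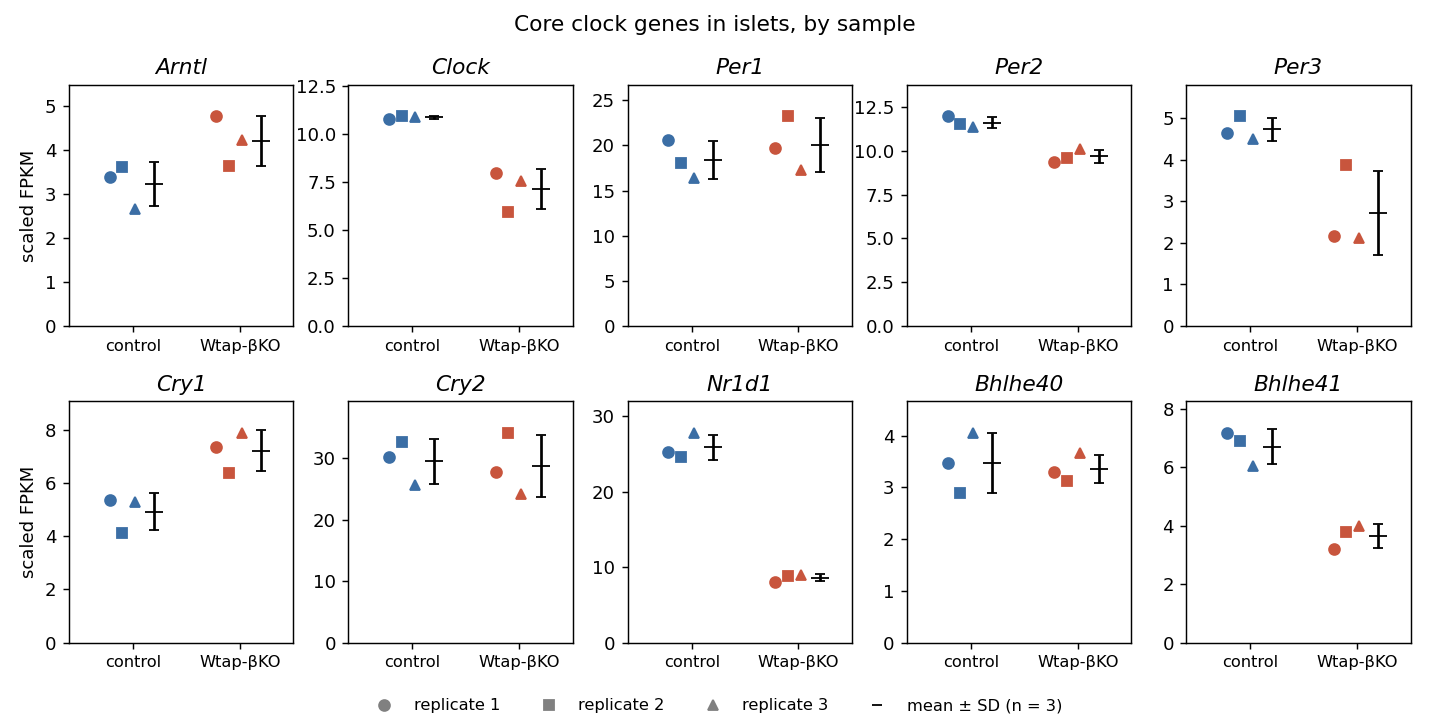
Scaled FPKM (vertical axis, from 0) of the 10 core clock genes in each library, controls in blue and libraries labelled Wtap-βKO in red, with marker shape for the replicate and a black bar for mean ± SD (n = 3). The libraries labelled Wtap-βKO lie below every control for Nr1d1, Bhlhe41, Clock, Per2 and Per3 and above every control for Cry1 and, by a narrow margin, Arntl.

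Of the activators, Clock (chromosome 5, 76209868 to 76304792, minus strand, GRCm38) encodes the DNA-binding partner of BMAL1. Its level was 10.8, 10.9 and 10.9 in controls 1 to 3 and 7.97, 5.97 and 7.54 in the Wtap-βKO-labelled replicates 1 to 3. The controls lay within a narrow band, all above the other group, whose replicate 2 was lowest. The mean fell from 10.9 ± 0.0699 to 7.16 ± 1.05 (SD, n = 3 each, with a log2 fold change of -0.55, SE 0.099, limma adjusted p = 0.0109). Without replicate 2 the log2 fold change was -0.44 (adjusted p = 0.00568 by limma). Clock has the longest gene model of the 10, 13727 bases. Over the 1215 tested genes of at least 10000 bases the median log2 fold change was -0.089 and 18.8% were called lower, against 0.038 and 6.64% over the 4457 genes under 2000 bases, with the bounds set after the values were seen. In replicate 2 these long genes stood 0.11 lower at the median (log2) than the mean of the other libraries of its group, and Clock 0.33 lower. The part of gene length in the fall of Clock was not tested.

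Arntl (chromosome 7, 113207465 to 113314126, plus strand) had the lowest control level of the 10. It was 3.39, 3.61 and 2.66 in controls and 4.76, 3.63 and 4.22 in those labelled Wtap-βKO. The groups did not overlap, but replicate 2 labelled Wtap-βKO stood just above the highest control. The means were 3.22 ± 0.499 and 4.20 ± 0.567 (log2 fold change 0.30, SE 0.12), a difference that was not called (limma gave an adjusted p of 0.126, with alternatives between 0.0411 and 0.298). On recovered reads, limma voom called it higher. Without replicate 2 the log2 fold change was 0.39 (adjusted p = 0.0797 by limma). The log2 ratio of Arntl to Clock, which encode the partners of one dimer, was -1.67, -1.60 and -2.04 in controls and -0.74, -0.72 and -0.84 in those labelled Wtap-βKO. This ratio, like the others below, was chosen after the values were seen and is a description with no test. All libraries labelled Wtap-βKO had more Arntl relative to Clock than any control.

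The Period genes encode repressors of that dimer, and 2 of the 3 were called lower. Per1 (chromosome 11, 69095217 to 69109960, plus strand) was 20.6, 18.0 and 16.4 in controls and 19.7, 23.2 and 17.3 in those labelled Wtap-βKO, with overlapping groups (means 18.3 ± 2.09 and 20.05 ± 2.99, with a log2 fold change of 0.12, SE 0.12, limma adjusted p = 0.534). The Per1 value ran from 0.012 without replicate 2 labelled Wtap-βKO, its highest library, to 0.22 on leaving out 1 library. Per2 (chromosome 1, 91415982 to 91459324, minus strand) was 12.0, 11.5 and 11.3 in controls and 9.35, 9.60 and 10.1 in those labelled Wtap-βKO. Its groups were tight and apart, with a small fall (means 11.6 ± 0.322 and 9.68 ± 0.373, with a log2 fold change of -0.24, SE 0.057, limma adjusted p = 0.0274). Per3 (chromosome 4, 151003652 to 151044665, minus strand), a Period gene thought to be less needed for the rhythm itself, was 4.65, 5.04 and 4.50 in controls and 2.17, 3.87 and 2.11 in those labelled Wtap-βKO. All of the latter lay below the controls, with replicate 2 nearest to them. The mean fell from 4.73 ± 0.277 to 2.72 ± 1.001 (log2 fold change -0.66, SE 0.18, limma adjusted p = 0.0409). Without replicate 2 the log2 fold change of Per3 was -0.87 (adjusted p = 0.00218 by limma) and that of Per2 -0.24 (0.0438). The log2 ratio of Per3 to Per1 was -2.15, -1.84 and -1.87 in controls and -3.18, -2.58 and -3.03 in those labelled Wtap-βKO, with no overlap. That of Per2 to Per1 was -0.78 to -0.54 and -1.27 to -0.78, which overlapped. The falls of Per2 and Per3 were each lost when any single library was left out, except replicate 2 labelled Wtap-βKO, with adjusted p by limma up to 0.0995 and 0.118. Scaling to total recovered reads also ended both (0.146 and 0.0587), rescaling without the 50 highest genes ended that of Per2 (0.0551), and testing with no filter or no variance trend ended that of Per3 (0.0963 and 0.0527).

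Of the Cryptochrome genes, whose products act with the Period proteins, 1 of 2 was called. Cry1 (chromosome 10, 85131700 to 85185064, minus strand), which is also a target of the REV-ERB repressors, was 5.36, 4.14 and 5.30 in controls and 7.38, 6.37 and 7.89 in those labelled Wtap-βKO. Every library labelled Wtap-βKO was above every control. The mean rose from 4.93 ± 0.687 to 7.22 ± 0.772 (log2 fold change 0.47, SE 0.11, limma adjusted p = 0.0275, and 0.55 with adjusted p = 0.0239 without replicate 2). The call was lost on leaving out any other single library (adjusted p by limma 0.0524 to 0.0883) and without a filter on low values (0.063). Cry2 (chromosome 2, 92403646 to 92434043, minus strand) had the highest level of the 10 in both groups, at 30.2, 32.7 and 25.6 in controls and 27.7, 34.1 and 24.2 in those labelled Wtap-βKO. The groups overlapped throughout (means 29.5 ± 3.60 and 28.7 ± 5.04, with a log2 fold change of -0.046, SE 0.14, limma adjusted p = 0.845), and the sign turned under quantile normalization and scaling to total recovered reads. Without replicate 2 the log2 fold change of Cry2 was -0.17. The log2 ratio of Cry1 to Cry2 ranged from -2.98 to -2.27 in controls and from -2.42 to -1.61 in those labelled Wtap-βKO, so the ratio overlapped. Whether the changes of these genes differ was not tested.

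Nr1d1 (chromosome 11, 98767932 to 98775333, minus strand) encodes a heme-binding nuclear receptor that represses Arntl. It was 25.3, 24.6 and 27.8 in controls and 8.04, 8.81 and 8.98 in those labelled Wtap-βKO. Both groups were tight, and the highest library labelled Wtap-βKO was far below the lowest control. The mean fell from 25.9 ± 1.67 to 8.61 ± 0.4996 (log2 fold change -1.49, SE 0.070, limma adjusted p = 0.000121). Of the 15927 genes tested, 58 including Nr1d1 had a log2 fold change at least as low. The call held in all 18 alternatives run (log2 fold change -1.59 to -1.38), and without replicate 2 the value was -1.50. The log2 ratio of Nr1d1 to Arntl was 2.90, 2.77 and 3.39 in controls and 0.76, 1.28 and 1.09 in those labelled Wtap-βKO. Nr1d1 shares 263 of its 3077 exon bases, 8.55%, with Thra, a thyroid hormone receptor gene on the opposite strand. Thra was 14.6 ± 0.733 and 13.9 ± 0.732 (adjusted p = 0.507 by limma). The protocol in the labels has no step that marks strand, so reads of the shared part cannot be assigned to either gene.

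Of the DEC genes, 1 of 2 was called. Bhlhe41 (chromosome 6, 145858243 to 145865558, minus strand), which encodes DEC2, was 7.17, 6.89 and 6.04 in controls and 3.20, 3.76 and 3.98 in those labelled Wtap-βKO, with a clear gap between the groups. Its mean fell from 6.70 ± 0.585 to 3.65 ± 0.401 (log2 fold change -0.73, SE 0.094, limma adjusted p = 0.00349, and -0.75 without replicate 2), and the call held in all 18 alternatives. Bhlhe41 shares 1280 of 6720 exon bases, 19.0%, with Gm43909, a gene on the opposite strand at 1.01 ± 0.230 and 0.712 ± 0.171 (adjusted p = 0.277 by limma). Bhlhe40 (chromosome 6, 108660629 to 108666925, plus strand), which encodes DEC1 and is also induced by many stimuli, was 3.47, 2.89 and 4.06 in controls and 3.30, 3.12 and 3.66 in those labelled Wtap-βKO. The groups overlapped (means 3.47 ± 0.585 and 3.36 ± 0.273, with a log2 fold change of -0.029, SE 0.11, limma adjusted p = 0.880), and the sign turned under both rescalings by total and without replicate 2 (0.010). The log2 ratio of Bhlhe41 to Bhlhe40 was 1.05, 1.26 and 0.58 in controls and -0.043, 0.27 and 0.12 in those labelled Wtap-βKO. The ratio did not overlap between the groups.

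Levels per length can be compared between genes, within a limit. The length used counts all exon bases of the gene model, and which transcripts were present was not examined. In controls the order was Cry2 (29.5), Nr1d1 (25.9), Per1 (18.3), Per2 (11.6), Clock (10.9), Bhlhe41 (6.70), Cry1 (4.93), Per3 (4.73), Bhlhe40 (3.47) and Arntl (3.22). Neighbours overlapped between Cry2 and Nr1d1, Cry1 and Per3, and Bhlhe40 and Arntl. In the libraries labelled Wtap-βKO the order was Cry2 (28.7), Per1 (20.05), Per2 (9.68), Nr1d1 (8.61), Cry1 (7.22), Clock (7.16), Arntl (4.20), Bhlhe41 (3.65), Bhlhe40 (3.36) and Per3 (2.72). There Cry1 overlapped Clock, and Arntl, Bhlhe41, Bhlhe40 and Per3 each overlapped the next in line. Nr1d1 thus stood among the highest 2 in controls and the fourth in the other group. Recovered reads per library were lowest for Bhlhe40 (216 to 342) and Cry1 (220 to 468) and highest for Cry2 (2654 to 3889). The median spread of the 10 within groups, as the SD of log2 values, was 0.15, against 0.12 over all genes tested. Per3 had the widest spread, 0.26, and Per2 the narrowest, 0.044.

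The rest of the clock was read from 46 listed genes, of which 43 were tested, with 3 called higher and 11 lower (8.77% and 11.3% of all genes). Their median log2 fold change was -0.09. Of the other loop factors described here, Nr1d2 and Rora fell and Npas2 rose. Nr1d2, which encodes REV-ERBβ, was 25.5, 25.0 and 27.1 in controls and 10.04, 15.5 and 9.89 in those labelled Wtap-βKO, 2.19-fold lower by the means (log2 fold change -1.097, SE 0.16, limma adjusted p = 0.00504). Rora, an activator that competes with the REV-ERB proteins, fell 1.40-fold, from 4.50 ± 0.195 to 3.21 ± 0.275 (adjusted p = 0.0163 by limma), a call lost in 3 of 17 alternatives. The gene model of Rora is also long, 13071 bases, and the part of length in its fall was not tested. Npas2, whose protein can stand in for CLOCK, rose from 0.751 ± 0.207 to 1.54 ± 0.285 (2.05-fold, adjusted p = 0.0382 by limma), and its call was lost in 7 of 17 alternatives.

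Of 4 D-box factors, 2 fell and 1 rose. Dbp was 15.3, 14.5 and 15.1 in controls and 4.27, 8.36 and 3.79 in those labelled Wtap-βKO (2.74-fold lower, with a log2 fold change of -1.37, SE 0.24, limma adjusted p = 0.00933). Tef fell 1.85-fold, from 14.01 ± 0.524 to 7.57 ± 2.17 (adjusted p = 0.0145 by limma). Nfil3, the repressor at the same sequence, was 15.4, 16.2 and 13.03 in controls and 26.9, 19.6 and 25.3 in those labelled Wtap-βKO (1.61-fold higher, adjusted p = 0.0163 by limma). Hlf was 1.92 ± 0.177 and 1.72 ± 0.519 (adjusted p = 0.608 by limma). The activator genes Dbp and Tef thus fell while the repressor gene Nfil3 rose, the calls of Tef and Nfil3 being lost in 2 and 3 of 18 alternatives, and in Dbp and Nfil3 replicate 2 labelled Wtap-βKO was nearest to the controls. Without it the log2 fold changes of Dbp, Tef and Nr1d2 were -1.67, -1.03 and -1.29, that of Nfil3 was 0.77, and that of Hlf was -0.27 in place of -0.12. On leaving out 1 library, Dbp ran from -1.67 to -1.19, Tef from -1.03 to -0.69 and Nr1d2 from -1.29 to -0.99. Nfil3 ran from 0.56 to 0.77 and Hlf from -0.27 to -0.033.

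Of 26 enzymes and partners of clock proteins, 7 fell and 0 rose by limma, and none rose before adjustment at p under 0.05 (0) or by limma voom (0). This count turned when values were scaled to total recovered reads, with 3 higher and 0 lower by limma (3 and 4 before adjustment). The 7 lower calls became 1, 1 and 0 by limma without control 1, 2 or 3 (10, 9 and 9 before adjustment). They became 3, 5 and 2 without replicate 1, 2 or 3 labelled Wtap-βKO, and 3 when scaled without the 50 highest genes. The changes were small. Csnk1a1 and Csnk2a1, kinase genes of the casein kinase families, fell 1.19-fold and 1.27-fold (adjusted p = 0.0181 for both by limma). Ncor1, the corepressor that the REV-ERB proteins recruit, fell 1.26-fold and the coactivator gene Ncoa2 1.29-fold (adjusted p = 0.0165 and 0.0263 by limma). Their calls were lost in 4, 6, 5 and 7 of 18 alternatives. The gene models of Csnk1a1, Ncor1 and Ncoa2 are long (10502, 12811 and 15642 bases), and that of Csnk2a1 has 7089. Of tested genes of at least 10000 bases, 18.8% were called lower and 4.69% higher. The part of gene length in the falls of these enzymes and partners was not tested. Of 6 tested outputs that cycle in many mouse tissues, limma and limma voom each called 0, and before adjustment 1 (Wee1, higher) had a p under 0.05 by limma. Without replicate 2 labelled Wtap-βKO, 1 was called lower by limma and 2 had a p under 0.05 before adjustment. The called gene was Por, which encodes cytochrome P450 oxidoreductase and is named here after its values were seen. It was 47.8, 51.3 and 49.3 in controls and 36.1, 73.6 and 38.0 in those labelled Wtap-βKO, with replicate 2 far above and the others below every control (adjusted p = 0.843 by limma, and 0.00631 without replicate 2). Wee1, a cell-cycle kinase gene, was 3.06 ± 0.546 and 3.93 ± 0.371, Noct, a nocturnin gene, 6.22 ± 1.17 and 4.96 ± 0.720, Usp2 1.09 ± 0.202 and 1.39 ± 0.418, and Tsc22d3 8.10 ± 1.18 and 7.39 ± 1.72.

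**Figure D2:**
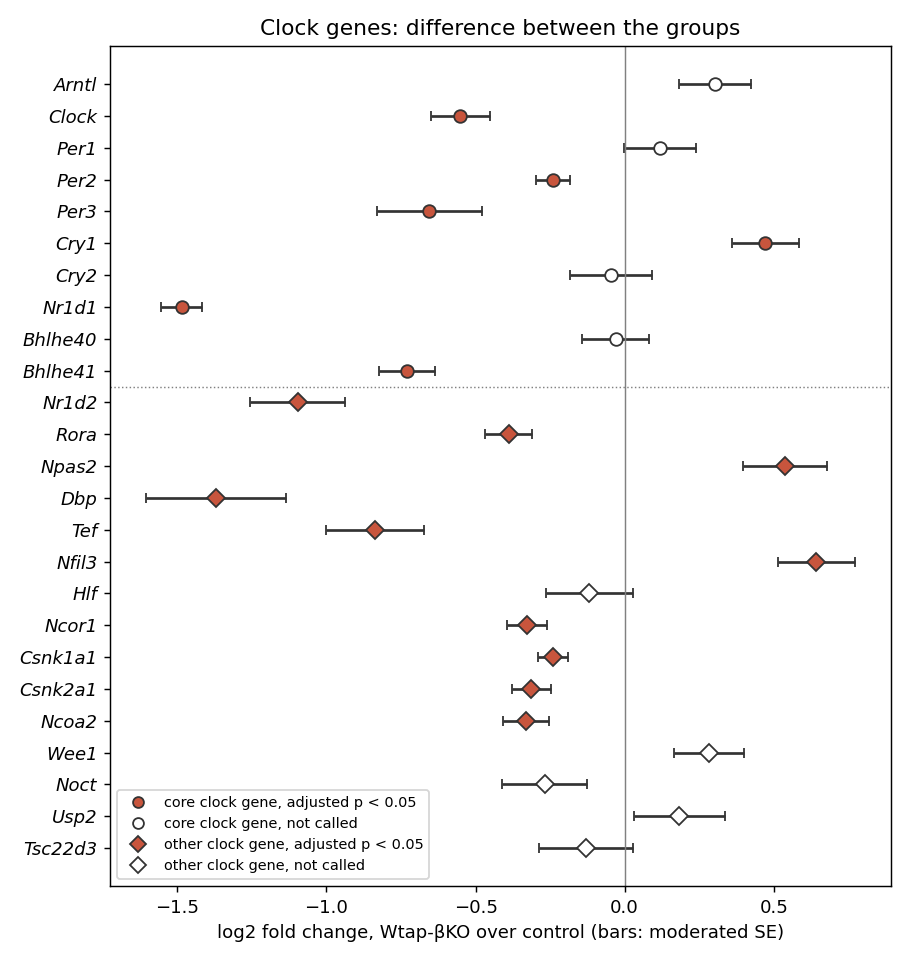
Log2 fold change (horizontal axis, libraries labelled Wtap-βKO over control, with the moderated SE as bars) of the 10 core clock genes (circles) and of the other clock genes described in the text (diamonds), filled where the adjusted p by limma was below 0.05. Nr1d1 (-1.49), Dbp (-1.37) and Nr1d2 (-1.097) lie farthest to the left, and Nfil3 (0.64) and Npas2 (0.54) farthest to the right.

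A contrast of genes known to peak at different times of day was formed in each library: the mean log2(scaled FPKM + 1) of Nr1d1, Nr1d2, Dbp, Tef, Per1, Per2, Per3 and Ciart minus that of Arntl, Npas2, Clock, Cry1 and Nfil3. It was 1.11, 0.97 and 1.101 in controls 1 to 3 and -0.30, 0.53 and -0.17 in the Wtap-βKO-labelled replicates 1 to 3. Controls were alike, and the libraries labelled Wtap-βKO were all lower, with replicate 2 between its group and the controls. The group means were 1.06 ± 0.0787 and 0.022 ± 0.443. In this contrast Clock (log2 fold change -0.55) and Per1 (0.12, not called) changed against the direction of their sets. With Dbp and Nr1d2 against Arntl and Npas2 alone, a second contrast that was not planned, it was 3.01, 2.76 and 3.05 in controls and 0.93, 1.95 and 0.97 in those labelled Wtap-βKO. The difference of the first contrast was -1.04, and -1.29 without replicate 2, a value chosen after seeing the data. On leaving out 1 library this difference ran from -1.29 to -0.88. The contrasts are scores over genes with known results and carry no test.

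The middle place of replicate 2 was not shared by all clock genes. Per3 was 2.21-fold below the control mean in replicates 1 and 3 labelled Wtap-βKO and 1.22-fold below it in replicate 2. Dbp was 3.72-fold and 1.80-fold below, and Nr1d2 2.60-fold and 1.67-fold. Nr1d1, in contrast, was 3.05-fold below in replicates 1 and 3 and 2.94-fold in replicate 2, and Bhlhe41 1.86-fold and 1.78-fold. For Clock the order was turned, with 1.40-fold and 1.82-fold. Among the genes that were higher, Cry1 was 1.55-fold above the control mean in replicates 1 and 3 and 1.29-fold in replicate 2, and Arntl 1.39-fold and 1.13-fold. Replicate 2 thus lay near the mean of replicates 1 and 3 for Nr1d1 and Bhlhe41, but not for Per3, Dbp and Nr1d2. The levels of Bhlhe41 in replicates 1 to 3 labelled Wtap-βKO were still spread, at 3.20, 3.76 and 3.98.

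**Figure D3:**
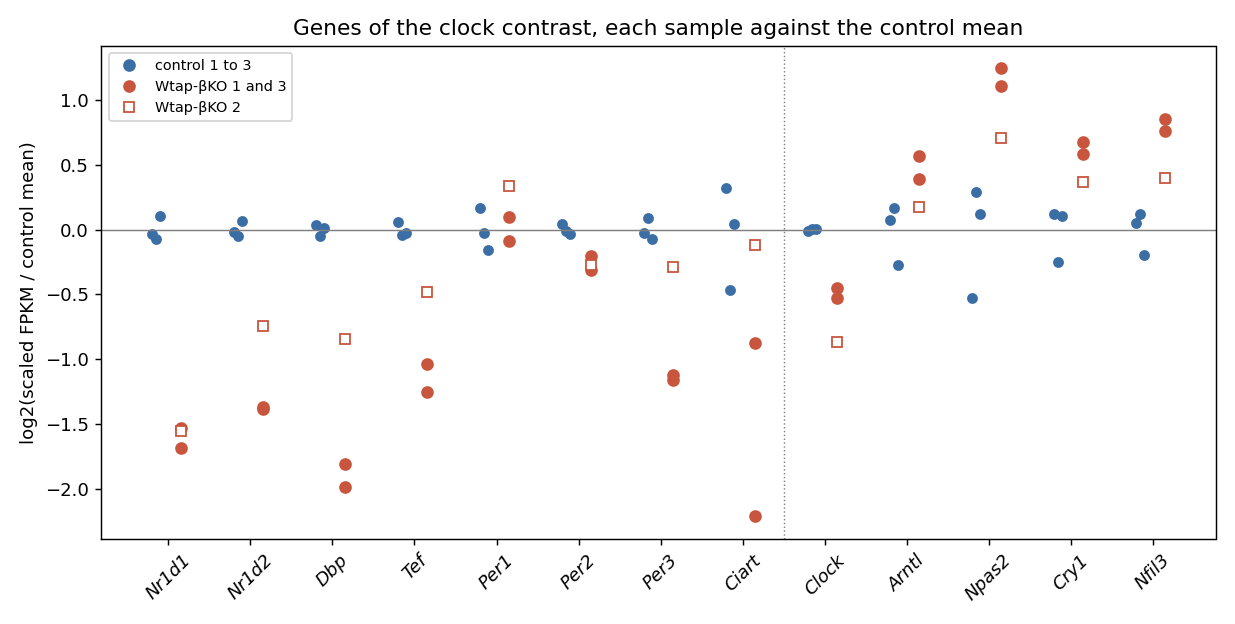
Log2 of scaled FPKM over the control mean (vertical axis) in every library for the 13 genes of the contrast, split by the dotted line into its 2 sets, with controls in blue, replicates 1 and 3 labelled Wtap-βKO as filled red circles and replicate 2 as open squares. Replicate 2 lies between the controls and the other libraries of its group for Nr1d2, Dbp, Tef, Per3, Npas2, Cry1, Nfil3 and, narrowly, Arntl, and beside the others for Nr1d1.

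The genes with the most similar profiles were found for each called clock gene, as the smallest root-mean-square difference of mean-centred log2 values over the 6 libraries, among genes with a mean of at least 5 scaled FPKM. For Nr1d1 these were Phactr1 (difference 0.067), Tmem206 (0.082) and Dnajc24 (0.091), which fell 2.95-fold, 2.79-fold and 2.81-fold. For Bhlhe41 they were Dyrk2 (0.067), the immediate early gene Egr1 (0.078) and Ttc39a (0.080). Clock was nearest to Utrn (0.033), the gene of utrophin, Arfgef2 (0.033) and Vps13c (0.036), which also had their lower values in the libraries labelled Wtap-βKO. For Per3 the nearest were Zdhhc2 (0.040), Slc37a4 (0.051), the glucose-6-phosphate transporter gene, and Pebp1 (0.066). Genes near Per2 included Lrp11 (0.016) and Ubl3 (0.024), and Cry1 was nearest to Man2a1 (0.027), Lrp1 (0.038) and the collagen gene Col4a2 (0.054). These neighbours share the group difference with the gene they were matched to, since the measure runs over both groups.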

How the data were processed

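Poly-A RNA of 6 islet samples was sequenced in pairs on an Illumina NovaSeq, per the labels' protocols. The authors deposited 1 table of FPKM values with 1 column per sample, and the deposited table also holds gene lengths and coordinates, per the file headers. HISAT2 2.0.5, CASAVA, DESeq2 1.20.0 and featureCounts 1.5.0-p3 are named in the submitters' processing notes, as are GRCm38 and mm10, without their roles. All 10 genes had the same coordinates in GENCODE M21.

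FPKM times gene length gave whole multiples of 1 read for 100% of values, within 0.01 read. Values were divided by a median-of-ratios factor (1.01 in each sample). Genes whose FPKM averaged 0.5 or more were tested on log2(value + 1) in R 4.3.3 by limma 3.58.1, two-sided, using eBayes and its intensity trend. Benjamini-Hochberg adjustment covered every gene tested, at a threshold of 0.05. The test was tried on simulated data. The genes and lists were chosen with earlier results of these data known. Other named genes were, in each list, the up to 4 of smallest adjusted p whose mean reached 1, the 3 nearest profiles of each called clock gene, and genes overlapping one, and some genes this rule names are not reported here. Alternatives were FPKM as deposited, quantile normalization, 2 rescalings by total, pseudocounts of 0.1 and 0.5, no filter, a mean of at least 5, no trend, a robust trend, limma voom on recovered reads, a block for the replicate number, and leaving out each sample. In the rescaling without the 50 highest genes no median-of-ratios factor was applied, since it would cancel the rescaling. Python 3.11.15, pandas 2.3.3 and matplotlib 3.10.9 were used.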

Additional observations from a re-analysis of the deposited data

How the results depend on the processing

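Calls of Nr1d1, Bhlhe41 and Clock held in all 18 alternatives. Over the 10 clock genes, 146 of 177 alternative values kept direction and side of the threshold, 22 lost the call, 1 gained it (Arntl under voom) and 8 turned sign without a call. FPKM as deposited differs from the main values only by the factor of 1.01 common to all samples. That alternative could hardly come out differently, and it is counted in these totals. Clock genes called higher numbered 0 by limma without a filter on low values (1 at an unadjusted p under 0.05), 2 by limma voom, and 0 to 1 on leaving out 1 library (1 or 2 at an unadjusted p under 0.05 in each fit that called 0). Those called lower numbered 3 when scaled to total recovered reads and 3 to 5 on leaving out 1 library. Other clock genes called higher numbered 7 when scaled to total recovered reads and 1 to 3 on leaving out 1 library. Those called lower numbered 7 when scaled to the same total without the 50 highest genes, 4 when scaled to total recovered reads, and 3 to 10 on leaving out 1 library. With the replicate block 7 other clock genes (3 of them enzymes and partners) and 4 clock genes were lower, and the call of Per2 was lost. The labels do not say whether replicate numbers pair the samples. The deviations of same-numbered samples correlated at 0.029, 0.038 and 0.019, and those of other pairs at -0.037 to 0.013. With so few samples these values cannot settle whether the samples were paired. Over all genes, scaling to total recovered reads called 2334 higher and 1094 lower, and leaving out 1 library 773 to 1379 and 1020 to 1834, with both counts over 1.5 times lower without any control or without replicate 3 labelled Wtap-βKO. The log2 fold change of Bhlhe40 was 0.0026 and 0.059 under the 2 rescalings and -0.13 to 0.064 on leaving out 1 library. That of Cry2 was 0.023 under quantile normalization, 0.064 when scaled to total recovered reads and -0.17 to 0.066 on leaving out 1 library. The difference in the clock contrast was -1.04, with -1.29 to -0.88 on leaving out 1 library, and -1.66 with 4 genes alone, a choice that was not planned. Leaving out a library leaves fewer samples, and for the other changes the cause was not tested. The counts carry no molecular identifiers. Between replicates of a group they differed by more than counting error, with chi-square over its degrees of freedom of 5.38 to 18.1.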
